A study of Mus musculus with 2 samples.

Results

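The genes described here are 32 genes of the endoplasmic reticulum (ER), the compartment where secreted proteins fold, taken by symbol from the 31053 genes listed in the deposited tables. They cover 11 chaperones and cochaperones, 6 genes of disulfide, prolyl and oxidative folding, 6 of ER-associated degradation (ERAD), 6 targets of the PERK-ATF4 pathway, Xbp1, and 2 subunits of the translocon-associated complex. The rule that picks them uses symbols and no measured value, although the list was drawn up with earlier results of these data known. The cells were from pancreatic islets of C57BL/6J mice at 13 weeks of age. One library is labelled CD, which is not spelled out, and the other HFD, for a high-fat diet that serves as a model of prediabetes. No transgene, deletion or drug is named for either group, the length of the diet and the number of mice per library are not given in the sources used here, and all cells were released by enzyme from islets picked by hand.

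Beta cells fold very large amounts of proinsulin, which carries disulfide bonds, so the ER machinery takes a large share of their effort. Unfolded protein is sensed by ER membrane proteins: ATF6 and IRE1, the latter through its product XBP1, raise chaperone and ERAD genes, and PERK, which slows translation and, through ATF4, raises genes of amino acid supply and, in lasting stress, of growth arrest and death. Alpha, delta and PP cells make smaller peptide hormones (glucagon, somatostatin and pancreatic polypeptide) in the same compartment.

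Cells were kept with at least 1500 unique molecular identifiers (UMIs, each 1 captured transcript), 500 genes or more and no more than 15% of their UMIs from the mitochondrial genome. Beta cells were those with at least 30% of UMIs on Ins1 and Ins2 (6515 in CD, 7433 in HFD), alpha cells those with at least 10% on Gcg (1272 and 2005), delta cells those with at least 3% on Sst (570 and 662) and PP cells those with at least 20% on Ppy (328 and 535). Cells past several cutoffs (144 and 143) were set aside. Cells under every cutoff were split by marker genes into endothelial (345 and 541), macrophage (155 and 213) and mesenchymal (125 and 198) cells; lymphocyte, ductal, acinar and Schwann cells were few or mixed and are not described. Defining markers were checked, among them these: Slc2a2 stood at 847 in CD and 846 in HFD beta cells against 19.5 and 14.7 in alpha cells, Hhex at 311 and 336 in delta cells, Plvap at 5173 and 4944 in endothelial cells, and C1qa at 5319 and 5111 in macrophages. A level here is the number of UMIs per 1000000 UMIs of the class after taking out 8 islet hormone genes and the mitochondrially encoded genes, because hormones alone fill most of a beta cell's UMIs. A UMI counts a 3' end once whatever the length of the transcript, so levels were not scaled by length. Whether different genes are captured equally well was not tested.

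All barcodes together gave 265836346 UMIs for CD against 271527648 for HFD, with a median of 21895 and 17673 UMIs per cell. The median mitochondrial share was 2.76% and 4.20%. The libraries shared 26 cell barcodes, where 17.2 would fall together by independent draws. RNA free in the droplets was estimated at 5.56% to 13.5% of all UMIs of a class in CD and 7.24% to 21.9% in HFD. A list of 16 immediate early and heat shock genes known to respond to tissue dissociation had a median log2 ratio of HFD to CD of 0.51 in beta, 0.72 in alpha, 0.45 in delta and 0.66 in PP cells. In CD, beta cells with 40 to 50% of UMIs on insulin (812 cells) had a median of 4097 UMIs and 11.0% mitochondrial UMIs, against 19651 UMIs and 4.47% in HFD. Between CD and HFD beta cells the summed level of 8 endothelial markers went from 53.2 to 144 and that of 7 acinar markers from 82.2 to 23.1, and in alpha cells that of 5 erythroid markers from 7.84 to 564; none of these lists was wholly at 0 in either library. With 1 library per diet, no difference between the diets has a replicate check and none was tested; intervals cover counting error only, and each ratio describes these 2 libraries. The part of dissociation, cell quality and other cells' RNA in the ratios was not tested.

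The promoters of the 32 genes show which of them carry the classic ER stress letters. In the RefSeq promoter table (build GRCm38.p6, 250 bases before to 50 after each start), 29 of the 32 genes had an entry. The ER stress element, CCAAT and CCACG separated by any 9 bases, was searched on both strands. It stood in the promoters of 10 of these 29 genes and of 37 of all 27025 genes (0.137%). Counted by promoter, it stood in 39 of all 32851 promoters of that length (0.119%). Of the 10, 6 are chaperones or cochaperones, and the others are the oxidoreductases Pdia6 and Ero1lb and the ERAD genes Syvn1 and Derl3. They are shown because Ero1lb and Derl3 were among the genes that differed most between the classes and between the libraries. Each is written 5′ to 3′ in the orientation of the motif, with its fixed letters in capitals and 5 bases either side.
Hspa5, chr2:34772020-34772048, plus strand: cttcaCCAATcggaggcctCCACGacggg
Hsp90b1, chr10:86705528-86705556, plus strand: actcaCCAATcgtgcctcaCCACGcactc
Hsp90b1, chr10:86705633-86705661, minus strand: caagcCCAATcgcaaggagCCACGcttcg
Calr, chr8:84847070-84847098, plus strand: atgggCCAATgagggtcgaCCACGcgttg
Canx, chr11:50325795-50325823, minus strand: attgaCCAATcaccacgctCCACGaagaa
Dnajc3, chr14:118937822-118937850, plus strand: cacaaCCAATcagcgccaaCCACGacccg
Creld2, chr15:88819515-88819543, minus strand: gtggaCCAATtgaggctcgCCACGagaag
Pdia6, chr12:17266486-17266514, plus strand: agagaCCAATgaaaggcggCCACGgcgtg
Ero1lb, chr13:12565677-12565705, minus strand: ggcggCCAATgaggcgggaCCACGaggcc
Syvn1, chr19:6046527-6046555, plus strand: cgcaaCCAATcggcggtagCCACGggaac
Derl3, chr10:75893237-75893265, minus strand: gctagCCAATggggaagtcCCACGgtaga

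The second form of the element, ATTGGNCCACG, stood in the promoters of 2 of the 29 genes, Dnajb11 and Herpud1, and of 12 of all genes (0.0444%). The composite site that ATF4 can bind with a partner, TGATGNAA, was found in 4 of the 29, namely Herpud1, Trib3, Chac1 and Asns, and in 4.51% of all genes. Herpud1 alone carried letters of both kinds. The letters TGACGTGG, bound by XBP1 and ATF6, were in the promoters of none of the 29 genes and of 0.714% of all genes. A match is a description of letters in a window and not a bound site.
Dnajb11, chr16:22857847-22857867, plus strand: cggcgATTGGcCCACGcctgg
Herpud1, chr8:94386372-94386392, plus strand: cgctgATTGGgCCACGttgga
Herpud1, chr8:94386312-94386329, minus strand: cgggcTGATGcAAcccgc
Trib3, chr2:152344034-152344051, plus strand: ccggcTGATGtAAacctg
Chac1, chr2:119351044-119351061, minus strand: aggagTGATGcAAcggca
Asns, chr6:7693220-7693237, minus strand: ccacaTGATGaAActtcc

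Across cell classes more of the ER genes were higher than lower in beta cells when set against each other endocrine class, and the largest gaps lay outside the chaperone arm. They were compared with edgeR's quasi-likelihood test on the 14 sums of 7 classes in 2 libraries, with the library as a block and Benjamini-Hochberg adjustment over 13536 genes. Of the 32 genes, 16 were higher and 2 lower in beta than in alpha cells, where 22.3% and 18.9% of all genes were called higher and lower. Against delta cells 23 were higher and 1 lower (background 18.7% and 17.1%), and against PP cells 14 were higher and 2 lower (20.8% and 13.8%). The genes called higher in each comparison include Trib3, Chac1 and Derl3, which had few UMIs in the other endocrine classes. The median log2 difference of the 32 genes was 0.47, 0.80 and 0.41, beside 0.01, 0.00 and 0.12 for all genes. In the mean of the 4 endocrine classes 23 of the 32 were higher and 4 lower than in the mean of the 3 non-endocrine classes (36.3% and 22.8%), with a median of 0.82 beside 0.17. Each class enters with 1 sum per library, cells are not replicates, and the classes share their 2 libraries. The test used TMM-scaled totals of all UMIs, hormones included, so its log2 differences are not the ratios of the printed levels. The setting without TMM factors used totals without hormone and mitochondrially encoded genes, as the levels do. In that setting the median of all genes shifted to 0.32 for beta minus alpha and to 0.51 for endocrine minus non-endocrine. The calls became 27 higher and 1 lower, and 23 higher and 2 lower. Of all 13536 genes 5595 were then higher and 1412 lower, and 6783 higher and 2145 lower. For beta minus delta, 17 of the 32 were higher with DESeq2, 17 with free RNA subtracted and 18 without the library block. Of all genes 1827, 1756 and 1527 were higher in these settings.

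**Figure D1:**
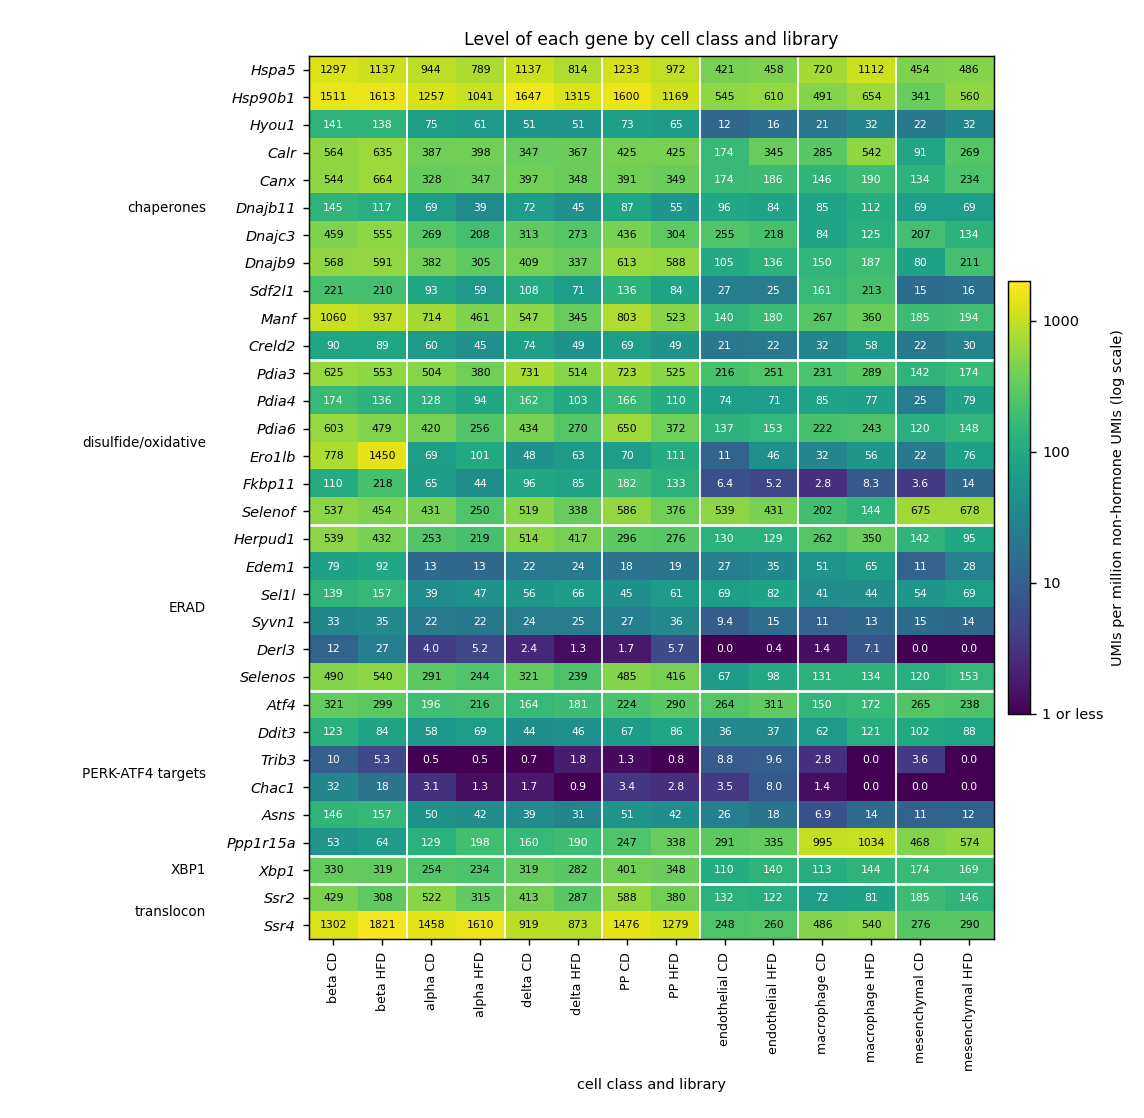
Level of each of the 32 genes (rows, grouped by arm) in the 7 cell classes of each library (columns), as UMIs per 1000000 UMIs without hormone and mitochondrially encoded genes, with colour on a log scale and the rounded level printed in each cell. Ero1lb stands at 778 and 1450 in beta cells and at 111 or less in every other class, while Ppp1r15a has its lowest levels, 53.4 and 64.0, in beta cells.

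**Figure D2:**
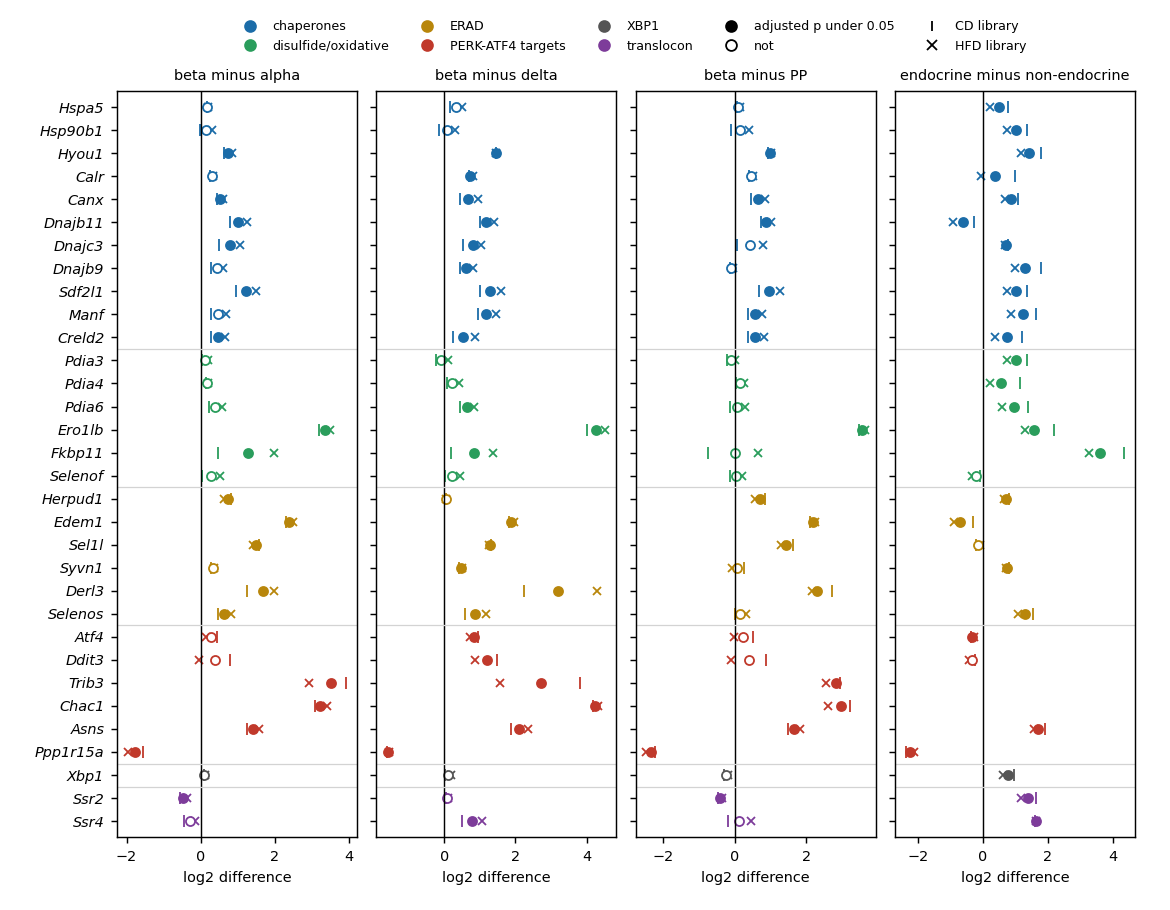
Log2 difference between cell classes for each gene in 4 comparisons (panels). Circles are the edgeR estimates over both libraries, filled where the adjusted p is under 0.05, bars and crosses are the CD and HFD libraries alone, and Trib3, Chac1 and Derl3 are left out of the last panel because their counts in non-endocrine cells are near 0.

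Hspa5 and Hsp90b1 are the ER forms of the Hsp70 and Hsp90 chaperones, and their levels were high in every endocrine class. Hspa5 (BiP, chr2:34771970-34777547) stood at 1297 in CD and 1137 in HFD beta cells, 944 and 789 in alpha cells, 1137 and 814 in delta cells and 1233 and 972 in PP cells. Hsp90b1 stood at 1511 and 1613 in beta cells and at 1647 and 1315 in delta cells. Neither gene passed the test between beta cells and any other endocrine class, with log2 differences of 0.07 to 0.32 and edgeR adjusted p of 0.19 to 0.81. Both were higher in endocrine than in non-endocrine cells, by 0.49 and 1.03 on the log2 scale. Endothelial cells held Hspa5 at 421 and 458.

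The cochaperones and smaller ER factors separated beta cells more than these did. Hyou1, which releases the nucleotide of BiP, stood at 141 and 138 in beta cells. It stood at 74.9 and 60.6 in alpha cells and 50.5 and 51.1 in delta cells, with edgeR log2 differences of 0.74 and 1.46. Sdf2l1, which works with ER DnaJ proteins, stood at 221 and 210 in beta cells against 93.2 and 59.4 in alpha cells, a log2 difference of 1.22 (edgeR adjusted p = 2.06e-05). Dnajb11, a DnaJ partner of BiP, stood at 145 and 117 in beta cells against 69.4 and 38.6 in alpha cells, and its log2 differences from alpha, delta and PP cells were 1.01, 1.17 and 0.86. Creld2 and the lectin chaperone Canx also passed against all 3 endocrine classes, with log2 differences of 0.47 to 0.68. Manf, a secreted ER factor needed for beta cell survival in mice, stood at 1060 and 937 in beta cells and passed against delta (1.18) and PP cells (0.56) but not against alpha cells (0.48, edgeR adjusted p = 0.077). Dnajc3 and Calr passed against fewer classes, and Dnajb9, the DnaJ protein that restrains IRE1, stood at 613 and 588 in PP cells and 568 and 591 in beta cells and passed against delta cells alone (0.62).

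Among the disulfide and folding genes, the oxidase that recharges the protein disulfide isomerases had the largest differences between classes. Pdia3 and Pdia4 passed in no comparison among endocrine cells, with log2 differences of -0.12 to 0.23, and Pdia6 passed against delta cells alone (0.63). Ero1lb (the pancreatic ER oxidase, chr13:12565874-12611396) stood at 778 in CD and 1450 in HFD beta cells. In alpha cells it stood at 69.3 and 101, in delta cells at 47.8 and 63.0, and in PP cells at 69.5 and 111. Every beta value lay above every other value. The log2 differences were 3.36, 4.27 and 3.55, with edgeR adjusted p of 1.03e-09, 2.75e-10 and 1.82e-09.

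Part of the Ero1lb signal outside beta cells lay within what free RNA can give. The free RNA share of a class times the level in empty droplets comes to 21.9 and 45.1 in alpha cells. In delta cells this product is 37.3 and 71.7. The share is of all UMIs and the level is of non-hormone UMIs, so the product is only a rough guide. It is the level called predicted from free RNA in what follows. When free RNA was subtracted from the counts themselves, some Ero1lb counts were left in both delta sums. In endothelial cells the counted levels, 11.1 and 45.6, were below the 27.7 and 114 that the rough product gives. The levels outside beta cells include this free RNA. Fkbp11, a prolyl isomerase of the ER, was higher in beta than in alpha (1.28) and delta cells (0.84) but not than in PP cells (0.00). In PP cells it stood at 182 in CD and 133 in HFD beside 110 and 218 in beta cells. The libraries differed: the log2 difference was 0.48 in CD and 1.97 in HFD from alpha cells, and 0.18 and 1.38 from delta cells. From PP cells it was -0.75 in CD and 0.64 in HFD, so the 0.00 averages opposite directions. Selenof, a selenoprotein that binds the glycoprotein folding sensor, stood at 537 and 454 in beta cells and at 675 and 678 in mesenchymal cells, and passed in none of the 4 comparisons.

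ERAD genes included some of the clearest beta cell differences. Edem1, which helps extract misfolded glycoproteins, stood at 79.4 and 92.3 in beta cells and at 13.2 and 13.0 in alpha, 22.4 and 23.8 in delta and 18.1 and 18.6 in PP cells, with log2 differences of 2.40, 1.89 and 2.17. Sel1l, the adaptor of the ERAD ubiquitin ligase, stood at 139 and 157 in beta cells against 38.6 and 46.7 in alpha cells, with log2 differences of 1.49, 1.28 and 1.44 from alpha, delta and PP cells. Syvn1 (Hrd1), the ligase itself, was far closer between classes, at 32.7 and 35.5 in beta and 22.0 and 21.7 in alpha cells, and passed against delta cells alone (0.46). Derl3, a channel protein of the complex that XBP1 is known to raise, stood at 11.6 and 26.5 in beta cells and at 3.98 and 5.24 in alpha cells. It was seen as 7 and 3 UMIs in delta cells, 4 and 14 in PP cells and 0 and 1 in endothelial cells. Herpud1, an ER membrane protein of the complex, stood at 514 and 417 in delta and 539 and 432 in beta cells, and was higher in beta than in alpha (0.73) and PP cells (0.71). Edem1 was lower in the mean of endocrine than of non-endocrine classes (-0.70), with 50.9 and 65.4 in macrophages and 26.9 and 35.2 in endothelial cells. Selenos, a membrane selenoprotein of the ERAD machinery, was higher in beta than in alpha (0.64) and delta cells (0.87).

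Among PERK-ATF4 targets Asns was higher and Ppp1r15a lower in beta cells than in each other endocrine class. Chac1 and Trib3 were also called higher, but both were too sparse in the other endocrine classes to compare. Asns (asparagine synthetase) stood at 146 and 157 in beta cells, 49.9 and 41.8 in alpha, 39.0 and 30.9 in delta and 51.0 and 42.1 in PP cells, with log2 differences of 1.42, 2.11 and 1.66. Chac1, which breaks down glutathione, stood at 32.1 and 18.4 in beta cells, from 1838 and 968 UMIs, and gave 24 and 13 UMIs in alpha, 5 and 2 in delta and 8 and 7 in PP cells. Trib3, a pseudokinase that feeds back on ATF4, stood at 10.3 and 5.25 in beta cells, and gave 4 and 5, 2 and 4, and 3 and 2 UMIs in alpha, delta and PP cells, too few for a fold. In CD alpha cells its counted level was 0.514 where free RNA predicts 0.654. Endothelial cells, in contrast, held 15 and 24 UMIs of Trib3, a level of 8.77 and 9.61 against 0.828 and 0.691 predicted. Ddit3 (CHOP), the stress factor linked to cell death, stood at 123 in CD and 83.8 in HFD beta cells against 58.0 and 68.9 in alpha cells. Its log2 difference from alpha cells was 0.80 in the CD library and -0.05 in the HFD library, and it did not pass (edgeR adjusted p = 0.082), although it was higher than in delta cells (1.21).

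Ppp1r15a (GADD34, chr7:45522916-45526268), which directs the phosphatase that ends the PERK translation block, ran the other way. It stood at 53.4 and 64.0 in beta cells, 129 and 198 in alpha, 160 and 190 in delta and 247 and 338 in PP cells. The log2 differences were -1.77, -1.58 and -2.36, with edgeR adjusted p of 5.12e-08, 3.78e-07 and 4.13e-09. Endothelial cells held 291 and 335, mesenchymal cells 468 and 574 and macrophages 995 and 1034, and the endocrine mean was lower than the non-endocrine mean by -2.24 on the log2 scale. Both beta values lay below all values of the other classes. The dissociation list, which does not contain Ppp1r15a, summed to 3325 and 4138 in beta cells and to 10250 or more in every other class, so its order was like that of this gene between beta cells and the rest; its part in the difference was not tested. Atf4 itself, the transcription factor of the arm, was lower in endocrine than non-endocrine cells by -0.32, a direction that flipped to 0.03 without TMM factors.

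Xbp1, the transcription factor spliced by IRE1, passed in no endocrine comparison and stood at 330 and 319 in beta, 254 and 234 in alpha, 319 and 282 in delta and 401 and 348 in PP cells. The tables do not separate its spliced form. Ssr4 and Ssr2, subunits that sit at the translocon through which new chains enter the ER, differed from the other arms. Ssr2 was lower in beta cells (429 and 308) than in alpha (522 and 315) and PP cells (588 and 380), by -0.47 and -0.43. Of the 32 genes only Ssr2 and Ppp1r15a were called lower in these comparisons, and Ppp1r15a had the larger differences (-1.77 and -2.36). Without TMM factors, or without the library block, only 1 of the 32 was called lower in each, so the Ssr2 call depends on the setting. Ssr4 (1302 and 1821 in beta cells) was higher in beta than in delta cells (0.79) and did not pass against alpha or PP cells. Both were higher in endocrine than non-endocrine classes, by 1.40 and 1.63.

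A wider list of 77 ER genes outside the 32 (sensors, further folding and ERAD genes, further ATF4 targets, and translocon, signal peptidase and oligosaccharyltransferase subunits) was put through the same test, and 76 had enough counts. In beta cells 42 were higher and 5 lower than in alpha cells (22.3% and 18.9% of all genes), 50 and 3 relative to delta cells (18.7% and 17.1%), and 30 and 4 relative to PP cells (20.8% and 13.8%). The median log2 differences were 0.46, 0.62 and 0.35, beside 0.01, 0.00 and 0.12 for all genes. In endocrine cells 47 were higher and 15 lower than in non-endocrine cells (36.3% and 22.8%), so the lower share was near that of all genes.

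The second comparison set the HFD library beside the CD library within each class. A gene counted as higher or lower when the ratio of levels was at least 1.5-fold with at least 50 UMIs over both sums. In beta cells the 32 genes centred near a ratio of 1, with a median log2 ratio of -0.02 beside 0.04 for all 13973 genes. Of them, 3 were at least 1.5-fold higher and 2 lower, where 9.6% and 4.89% of all genes were. In alpha cells 1 was higher and 6 lower of the 30 with enough UMIs (background 4.96% and 4.3%), and the median was -0.26 beside -0.03 for all genes. In delta cells 0 were higher and 7 lower of 29 (8.01% and 3.69%), with a median of -0.28 beside 0.02, and in PP cells 1 was higher and 7 lower of 29 (4.37% and 4.57%), with a median of -0.22 beside -0.04. The endocrine classes come from the same 2 libraries, so their likeness is not independent support.

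**Figure D3:**
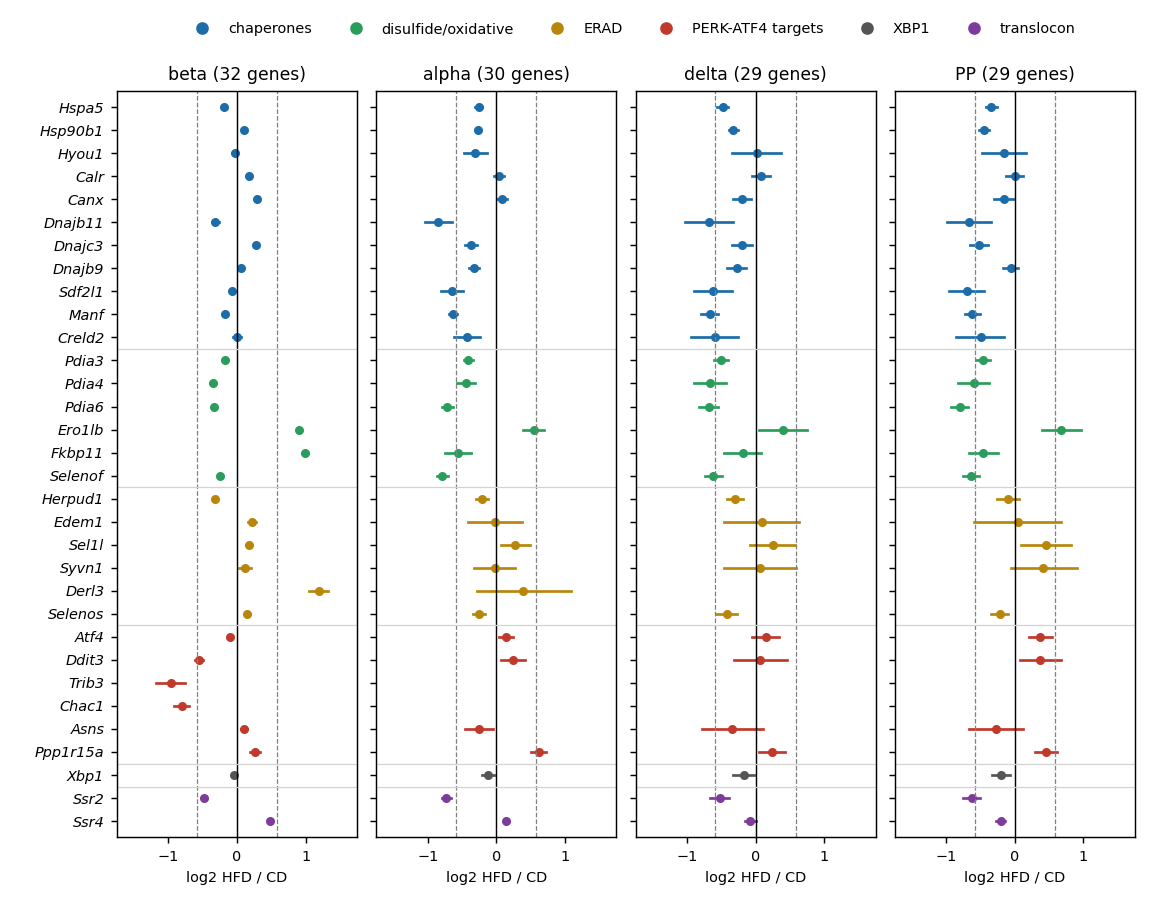
Log2 ratio of the HFD to the CD level of each gene in beta, alpha, delta and PP cells (panels), with bars for the exact 95% counting interval and dashed lines at 1.5-fold. In alpha, delta and PP cells most chaperones and disulfide isomerases lie left of 0, while in beta cells Ero1lb, Fkbp11 and Derl3 lie beyond the right-hand line and Trib3 and Chac1 beyond the left.

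In beta cells the genes higher in HFD were an oxidase, a prolyl isomerase and an ERAD gene. Ero1lb went from 778 to 1450, with a log2 ratio of 0.90 (0.88 to 0.91). It gave a UMI in 75.1% and 88.7% of beta cells thinned to 2000 UMIs (93.4% and 98.0% unthinned). In endothelial cells, which should lack it, the thinned shares were 1.24% and 8.03%. The median depth was 26671 and 24050 UMIs in the beta cells and 4444 and 4326 in the endothelial cells. Fkbp11 (chr15:98724366-98728198) stood at 110 and 218, a log2 ratio of 0.99 (0.94 to 1.03). Derl3 (chr10:75893413-75895941) stood at 11.6 and 26.5, from 665 and 1398 UMIs, a log2 ratio of 1.19 (1.06 to 1.33). These 3, and the 2 lower genes below, stayed beyond 1.5-fold in the 10 other scalings, filters and subtractions tried. Among these 10, the minimum of 1 UMI changes only which genes count and leaves each ratio as it was. It is therefore no check of a ratio, here or in the counts of other settings below.

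The ATF4 targets Chac1 and Trib3 were lower in HFD beta cells. Chac1 (chr2:119351229-119354381) stood at 32.1 and 18.4, a log2 ratio of -0.81 (-0.92 to -0.69). Trib3 (chr2:152337422-152344032) stood at 10.3 and 5.25, a log2 ratio of -0.97 (-1.18 to -0.76). Ddit3 had a log2 ratio of -0.56 (-0.61 to -0.50), just inside the 1.5-fold line. It lay beyond that line, at -0.67 to -0.60, in 4 of 10 other settings, namely TMM scaling, scaling to all UMIs, free RNA subtracted and thinned cells. Atf4 (321 and 299) had one of -0.10 and Asns (146 and 157) of 0.10. Ppp1r15a stood at 53.4 and 64.0, a log2 ratio of 0.26. Its rough free RNA product was 8.73 in CD and 21.8 in HFD, and the part of free RNA in this ratio was not tested.

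The chaperones all lay inside the 1.5-fold line in beta cells. Hspa5 had a log2 ratio of -0.19, Hsp90b1 of 0.09, Calr of 0.17, Canx of 0.29 and Dnajc3 of 0.28. Dnajb11 was at -0.31 and Manf at -0.18, while Sdf2l1, Hyou1, Creld2 and Dnajb9 lay between -0.07 and 0.06. The isomerases Pdia3, Pdia4 and Pdia6 had ratios of -0.18, -0.35 and -0.33, and Selenof of -0.24. Herpud1 was at -0.32, and the other ERAD genes apart from Derl3 lay between 0.12 and 0.22. The translocon subunits went in opposite directions, Ssr4 at 0.48 (1302 and 1821) and Ssr2 at -0.48 (429 and 308), both inside the 1.5-fold line. Xbp1 was at -0.05.

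In alpha cells 5 chaperone and folding genes and the translocon gene Ssr2 were at least 1.5-fold lower in HFD. Dnajb11 had a level of 69.4 in CD against 38.6 in HFD, and its log2 ratio was -0.85 (-1.04 to -0.65). Selenof stood at 431 and 250 (-0.79), Ssr2 at 522 and 315 (-0.73), Pdia6 at 420 and 256 (-0.71), Sdf2l1 at 93.2 and 59.4 (-0.65) and Manf at 714 and 461 (-0.63). Of the 11 chaperones and cochaperones 9 had a ratio below 1, and of the 6 disulfide and folding genes 5 did. Of all genes, 53.7% had a ratio below 1. Calr (0.04) and Canx (0.08) were the chaperones above it. The exception in that arm was Ero1lb, at 69.3 and 101, a ratio of 0.54 that includes the free RNA described above. Ero1lb (0.60 to 0.63) and Fkbp11 (-0.67 to -0.59) each passed 1.5-fold in 3 of 10 other settings. Ppp1r15a was the only member at least 1.5-fold higher, at 129 and 198, a log2 ratio of 0.62 (0.51 to 0.73). It was under 1.5-fold with stricter hormone cutoffs (0.54), as was Manf with TMM scaling (-0.58). Atf4 (0.14) and Ddit3 (0.25) also had intervals above a ratio of 1, whereas both had intervals below it in beta cells.

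Delta and PP cells had 7 lower genes each. In delta cells these were Pdia6 (434 and 270), Dnajb11 (71.9 and 45.0), Manf (547 and 345), Pdia4 (162 and 103), Selenof (519 and 338), Sdf2l1 (108 and 70.5) and Creld2 (73.9 and 48.9), with log2 ratios of -0.69 to -0.60. In PP cells they were Pdia6 (650 and 372), Sdf2l1 (136 and 83.7), Dnajb11 (86.8 and 54.6), Selenof (586 and 376), Ssr2 (588 and 380), Manf (803 and 523) and Pdia4 (166 and 110), with log2 ratios of -0.81 to -0.60. Creld2 in delta cells fell under 1.5-fold in 4 of 10 other settings and Pdia4 in PP cells in 5 of 10. Manf, Selenof, Pdia4 and Sdf2l1 in delta cells, and Manf and Sdf2l1 in PP cells, did so in 1 or 2. Hspa5 had log2 ratios of -0.48 and -0.34 in these classes and Hsp90b1 of -0.33 and -0.45. Ero1lb was higher in PP cells, at 69.5 and 111 (0.68), and was under the 1.5-fold line once free RNA was subtracted. The dissociation list was higher in HFD in 14 of its 16 genes in beta cells and in 13 to 15 in the other 3 endocrine classes. The median mitochondrial share in HFD and CD was 3.78% against 2.70% in beta cells, 4.78% against 2.73% in alpha cells, 5.40% against 3.23% in delta cells and 3.38% against 1.97% in PP cells.

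Among the wider ER list, translocon, signal peptidase and oligosaccharyltransferase genes had ratios below 1 in 18 of 23 cases in alpha, 20 of 23 in delta and 20 of 23 in PP cells, and in 11 of 23 in beta cells, where 53.7%, 47.2%, 54.6% and 45.5% of all genes did. Their median log2 ratios were -0.27, -0.19, -0.32 and 0.04, beside -0.03, 0.02, -0.04 and 0.04 for all genes. The 2 of them beyond 1.5-fold in alpha cells were Ddost (380 and 237), which anchors the oligosaccharyltransferase, and Spcs2 (593 and 387), a signal peptidase subunit. The folding gene Tor1a was also lower there (48.2 and 31.7). Among further ATF4 targets, Nupr1 was higher in HFD beta cells (265 and 632), and Atf3, also on the dissociation list, in HFD alpha cells (56.7 and 265). Their levels in the other class were past 1.5-fold too but did not exceed the rough free RNA product. Nupr1 stood at 9.77 and 20.9 in alpha cells where 14.0 and 32.5 are predicted. Atf3 stood at 7.40 and 22.3 in beta cells where 9.52 and 30.6 are predicted. Atf5 was lower in HFD alpha cells (27.8 and 15.5). Psat1 (5.44 and 11.4 in beta, 5.40 and 2.67 in alpha cells), Phgdh (5.40 and 2.88 in alpha cells) and Vldlr (6.43 and 3.29 in alpha cells) also passed 1.5-fold. Each had 1 of the compared levels at or under the rough free RNA product. Fkbp7 was higher in beta cells (4.20 and 6.35), where the rough free RNA product is 0.529 in CD and 3.36 in HFD.

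In the non-endocrine classes the lectin chaperone Calr was the member that was higher in HFD in all 3. It stood at 174 in CD and 345 in HFD endothelial cells, 285 and 542 in macrophages and 90.8 and 269 in mesenchymal cells. The log2 ratios were 0.99 (0.79 to 1.18), 0.93 (0.69 to 1.17) and 1.57 (0.93 to 2.25), the last from 25 and 116 UMIs. In each of the 4 endocrine classes its log2 ratio was 0.17 or less. Free RNA predicts 28.1 and 92.6 of the endothelial levels, 29.0 and 64.3 of the macrophage levels and 46.8 and 111 of the mesenchymal levels, and the ratio stayed above 1.5-fold in all 3 classes after subtraction. In all, 3 of 28 genes with enough UMIs were higher and 0 lower in endothelial cells (6.46% and 4.3% of all genes), 5 of 25 higher and 0 lower in macrophages (9.35% and 5.99%) and 4 of 18 higher and 1 lower in mesenchymal cells (7.9% and 8.65%). The macrophage genes were Calr, Ddit3 (61.9 and 121), Creld2, Ero1lb and Hspa5 (720 and 1112, a log2 ratio of 0.63). Hspa5 was under 1.5-fold in 3 of 10 other settings, and Ero1lb in HFD macrophages, at 55.9, was below its rough free RNA product of 79.1. All 10 chaperones with enough UMIs in macrophages had a ratio above 1, as did 1695 of all 3391 genes, and the dissociation list was higher there in 9 of its 16 genes. The endothelial genes beside Calr were Syvn1, with 16 and 38 UMIs and an interval that included 1, and Ero1lb, which did not exceed its rough free RNA product. In mesenchymal cells Hsp90b1, Canx and Dnajb9 were the other higher genes and Dnajc3 the lower one, from at most 242 UMIs in either library; Dnajc3 was under 1.5-fold in 5 of 9 other settings, Hsp90b1 in 2 of 10 and Canx in 1 of 9.

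Within beta cells the level of ER genes was also read along the share of UMIs on insulin, in cells with 30 to 40, 40 to 50, 50 to 60, and 60% or more. Ero1lb was higher at each step, at 313, 516, 661 and 877 in CD and 537, 803, 1123 and 1632 in HFD, and higher in HFD than in CD at each of the 4. Manf stood at 742, 849, 983 and 1129 in CD and 706, 721, 843 and 992 in HFD. Ssr4 stood at 1062, 1149, 1205 and 1373 in CD and 1383, 1490, 1639 and 1918 in HFD. Ppp1r15a was lower at each step, from 106 to 72.7, 55.2 and 48.8 in CD and from 133 to 115, 79.4 and 53.2 in HFD. Hspa5 lay between 1250 and 1317 in CD and between 1057 and 1149 in HFD. Fkbp11 was between 92.4 and 117 in CD and between 149 and 235 in HFD. Depth differed between the bins too, with medians of 14387, 4097, 24094 and 28793 UMIs in CD and 13768, 19651, 20799 and 25145 in HFD, and the lowest bins held 127 and 114 cells. With only cells of at least 3000 UMIs, a limit chosen after seeing the data, the 4 CD levels of Ero1lb were 305, 511, 661 and 877.

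**Figure D4:**
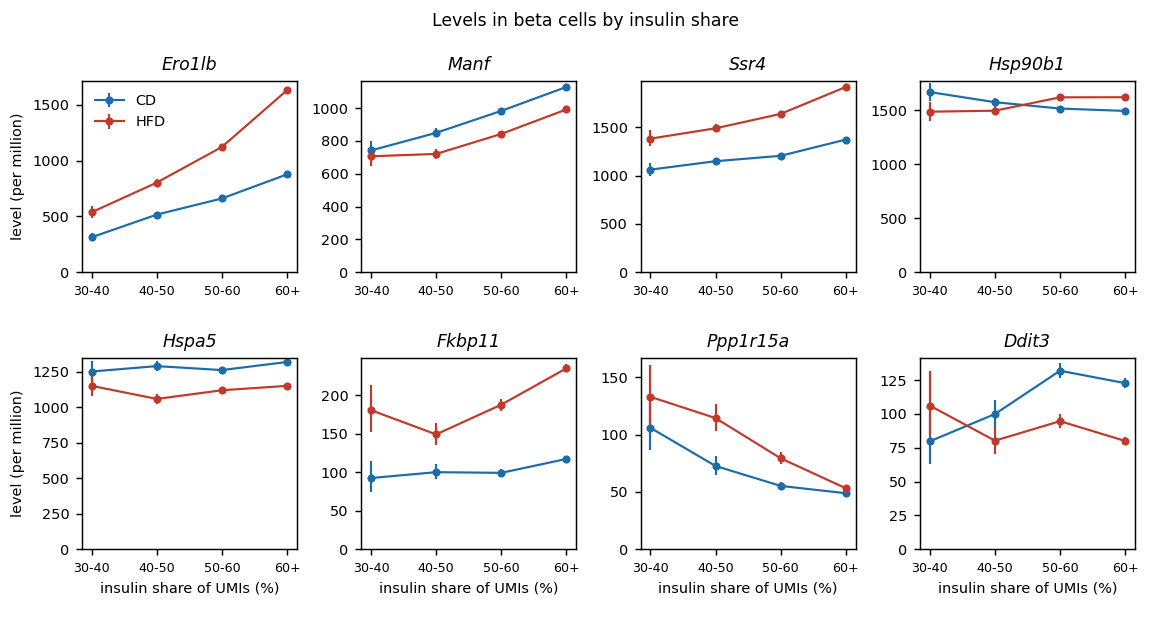
Level in beta cells (vertical axis, UMIs per 1000000 UMIs without hormone and mitochondrially encoded genes) of 8 genes in 4 bins of the insulin share of UMIs (horizontal axis, percent), with exact 95% counting intervals, for the CD and the HFD library. Ero1lb goes from 313 to 877 in CD and from 537 to 1632 in HFD, while Ppp1r15a goes from 106 to 48.8 and from 133 to 53.2.

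The 32 genes were also compared cell by cell in beta cells thinned to 5000 non-hormone UMIs, which kept 5551 CD and 5463 HFD cells and left out 964 and 1970 shallower ones. Counts per gene and cell were low, the cells of a library share its depth and free RNA, and Pearson correlations are given as a description. The highest means over both libraries were among chaperones: Dnajb9 with Manf (0.23 in CD, 0.25 in HFD) and Hspa5 with Manf (0.22 and 0.26). Among the 17 chaperone and folding genes the median of 136 pairs was 0.06 in CD and 0.08 in HFD. Among Atf4, Ddit3, Trib3, Chac1 and Asns the median of 10 pairs was 0.08 and 0.07, and between these 5 and the folding genes the median of 85 pairs was 0.01 and 0.01. Herpud1, with letters of both kinds in its promoter, had a median of 0.08 and 0.06 with the 5 ATF4 genes and of 0.02 and 0.03 with the folding genes. Ppp1r15a reached at most 0.02 with any of the 31 others in either library.

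**Figure D5:**
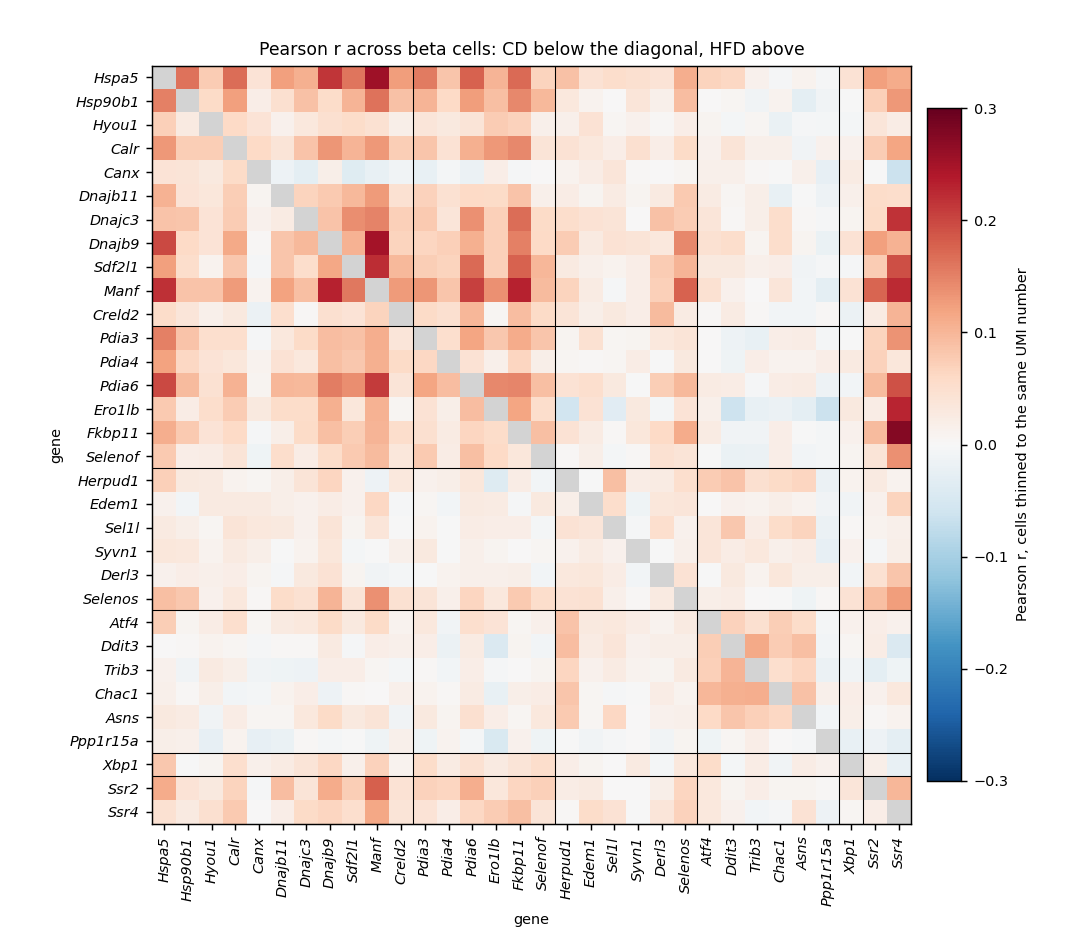
Pearson correlation across beta cells for each pair of the 32 genes, CD below and HFD above the diagonal, in cells thinned to 5000 UMIs. The warm block at the upper left holds chaperone and folding genes, with up to 0.23 in CD and 0.26 in HFD, and the small block at the lower right holds Atf4, Ddit3, Trib3, Chac1 and Asns, with up to 0.11 in both libraries.

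Summed over an arm, the chaperones went with the disulfide and folding genes at 0.36 in CD and 0.37 in HFD across beta cells, and with the PERK-ATF4 targets at 0.09 and 0.06. The disulfide and folding arm went with the hormone share of the cell at 0.28 and 0.39, and the PERK-ATF4 arm at 0.07 and 0.02. Ssr4 with Fkbp11, a pair from different arms, stood at 0.09 in CD and 0.28 in HFD.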

How the data were processed

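Single islet cells of 1 CD and 1 HFD library were profiled with 10x Genomics 3' version 3 chemistry. The deposited matrices hold whole-number UMI counts per gene and barcode; Cell Ranger 6.0.1 and the mm10 build are named in the submitters' processing notes, while software version 3.0.2 stands in the file header. Empty barcodes were included in the deposited matrices, and no doublets were removed in the main analysis; Scrublet (scanpy 1.11.5) calls were taken out as an alternative. Counts were summed per class and library with Python 3.11.15 and scipy 1.17.1. Ratios of HFD to CD carry exact conditional binomial 95% intervals. Classes were compared with edgeR 4.0.16 in R 4.3.3 (TMM, filterByExpr, quasi-likelihood test, 6 residual degrees of freedom), with DESeq2 1.42.0 as an alternative. Both scripts were tested on simulated data. Free RNA was estimated from barcodes of 10 to 100 UMIs and the hormones foreign to a class. Named genes are all 32 members by arm, in full where at least 1.5-fold different between libraries or 2-fold between classes; genes of the wider list are named only where 1.5-fold different in beta or alpha cells. The members and lists were chosen with earlier results of these data known. Gene positions are from GENCODE M21 (GRCm38). Exons of Ddit3 and Manf overlap those of AC144852.1 (105 bases) and Rbm15b (14 bases) on the same strand, so their counts are less certain.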

Additional observations from a re-analysis of the deposited data

Results flagged for a closer look

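For 8 of the 32 genes the log2 ratio of HFD to CD had opposite signs in beta and alpha cells, with both counting intervals clear of 0; with 1 library per diet the difference was not tested. They were 8 of the 30 genes with enough UMIs in both classes (26.7%), beside 370 of all 11019 genes (3.36%). Few UMIs widen the intervals, and among genes with at least 500 UMIs in alpha cells they were 8 of 27 (29.6%) beside 263 of 4845 (5.43%). Hsp90b1 stood at 0.09 in beta and -0.27 in alpha cells, Dnajc3 at 0.28 and -0.37, and Dnajb9 at 0.06 and -0.33, all chaperones or cochaperones with alpha ratios inside the 1.5-fold line. The sign of Dnajb9 in beta cells turned when levels were scaled to all UMIs or every cell was weighted alike, and none of the other values here changed sign in the settings tried. Fkbp11 had the widest gap, at 0.99 and -0.56. Selenos, an ERAD gene, stood at 0.14 and -0.25, and Asns at 0.10 and -0.25. Atf4 and Ddit3 had the reverse order, at -0.10 and 0.14 and at -0.56 and 0.25.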

How the results depend on the processing

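No paired analysis was possible because the diets share only replicate number 1. Shares in brackets here are those of all genes in the same setting. Calling at a lower fold, 0.32 on the log2 scale, gave 6 of 32 genes lower in HFD in beta cells (14.2%). In alpha cells it gave 3 higher and 12 lower of 30 (16.3% and 18%). In delta cells it gave 1 and 13 of 29 (22.2% and 14.8%), and in PP cells 6 and 13 of 29 (14.1% and 17.8%). In endothelial cells it gave 9 and 2 of 28 (17.3% and 15.8%), and in macrophages 14 and 1 of 25 (20.7% and 17.4%). In mesenchymal cells 3 of 18 were lower (21.7%). A minimum of 1 UMI gave 1 of 32 higher in delta (15.5%) and 2 of 32 in PP cells (11.1%). It gave 9 of 30 higher in macrophage (21.2%) and 8 of 29 in mesenchymal cells (18.9%). Thinned cells gave 2 of 28 higher in delta (8.51%), 3 of 27 in PP (5.48%) and 1 of 14 in mesenchymal cells (9.91%). They gave 1 of 21 lower in macrophages (6.78%). Stricter hormone cutoffs gave 1 higher and 4 lower of 29 in delta cells (7.7% and 4.7%). They gave 0 of 29 higher in PP (4.62%) and 0 of 20 lower in mesenchymal cells (9.03%). Subtracting free RNA gave 0 of 29 higher in PP cells (4.48%). It gave 1 higher and 1 lower of 25 in endothelial (5.81% and 5.15%) and 2 of 18 lower in mesenchymal cells (9.05%). A minimum of 3000 UMIs gave 1 of 27 lower in endothelial cells (4.32%). In mesenchymal cells it gave 0 higher and 0 lower of 7 (13.1% and 8.47%). TMM scaling gave 2 of 30 higher in alpha (6.28%) and 0 of 18 lower in mesenchymal cells (7.19%). Removing Scrublet doublets gave 3 of 30 higher in alpha (4.58%) and 2 of 18 lower in mesenchymal cells (8.48%). Weighting every cell alike gave 1 of 29 higher in delta cells (8.99%). In mesenchymal cells scaling to all UMIs gave 2 of 18 lower (11.9%) and a 10% mitochondrial limit 0 of 18 (8.79%). Between classes, leaving out TMM factors gave 27 higher and 1 lower for beta minus alpha, beside 5595 and 1412 of all 13536 genes. It gave 1 lower for beta minus PP (1672 of all genes) and 2 lower for endocrine minus non-endocrine (2145). Leaving out the library block gave 1 lower for beta minus alpha (1601 of all genes) and 1 for beta minus PP (1218). Atf4 turned to 0.0271 for endocrine minus non-endocrine without TMM factors, and Calr to -0.0543 in the HFD library alone. Of the single-gene values, 1735 of the diet ratios under alternatives stayed within their interval and 140 moved. The 1735 include those with a minimum of 1 UMI, which cannot change a ratio. Of the class differences 1211 kept direction and side of the threshold, 39 lost the call, 28 gained it and 2 reversed. The cause was not tested. With 1 library per diet, depth sets only counting error, and genes such as Trib3, Chac1 and Derl3 outside beta cells are too sparse to compare.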
